A study of Mus musculus with 16 samples.

Results

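The genes described here are 9 transcription factors that mark classes of spinal interneurons, chosen by symbol from the 56748 genes of the deposited table: Lhx1, Lhx5, Pax2, En1, Evx1, Lbx1, Sim1, Gata2 and Lmx1b. Each symbol matched 1 row, and all 9 genes passed the filter on low values (at least 0.5 FPKM in at least 4 of 16 libraries). FPKM are fragment counts scaled for gene length and sequencing depth, so the levels below are per length.

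Interneurons of the embryonic spinal cord arise in an ordered series of domains along the dorsal to ventral axis of the neural tube, and each newborn class switches on its own combination of homeodomain, bHLH or zinc finger factors. Lhx1, Lhx5 and Pax2 are shared by several mostly inhibitory classes, while En1 (V1), Evx1 (V0), Gata2 (V2b), Sim1 (V3), Lbx1 (dI4 to dI6) and Lmx1b (dI5) mark narrower ones. Most of these factors also act elsewhere in the embryo: Lhx1 and Pax2 in the nephric duct, Lbx1 in migrating muscle precursors, Evx1 in the tailbud, Gata2 in blood and endothelium, En1 and Lmx1b in the limb.

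RNA came from E11.5 mouse embryos in 4 groups of 4 libraries, described as biological replicates: Ednrb-/- trunk, WT trunk, Ednrb-/- caudal and WT caudal, where WT is Ednrb+/+. The study asked how the local tissue bears on where pigmented spots form in mice that lack Ednrb. Ednrb encodes the endothelin receptor B, needed by pigment cell and enteric nerve precursors. The whole region was sampled, so each library mixes neural tube with all other tissue there. In such bulk samples fewer cells of a class and less RNA per cell cannot be told apart. The series title calls the Ednrb mutation targeted, and the labels do not give the strain, the allele, whether a library is 1 embryo or a pool, or which trunk and caudal libraries share an embryo. If replicates share a source, the p-values below measure only the spread between these libraries.

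The labels held for genotype. Ednrb ranged from 3.37 to 4.80 FPKM in Ednrb-/- trunk and from 35.8 to 41.8 FPKM in WT trunk, and from 1.59 to 3.44 FPKM in Ednrb-/- caudal and from 26.2 to 33.5 FPKM in WT caudal. They held for region as well, since all 12 genes of a posterior Hox list were lower in trunk than in caudal libraries of both genotypes. Reads in listed genes numbered 34883821 to 43444905 per library, and the 9 factors had between 59 and 1974 reads each. In 3 libraries (Ednrb-/- trunk replicate 3, Ednrb-/- caudal replicate 3 and WT caudal replicate 2) the female-expressed Xist and the Y-linked Ddx3y both reached 5 FPKM, and the main counts are given without these libraries as well. Among the 17205 genes tested, calls were about evenly split in direction in the caudal genotype comparison (3732 higher and 3432 lower in Ednrb-/-), but TPM scaling gave 2216 higher and 5028 lower and voom 2613 and 4447. In the trunk genotype comparison 2092 were higher and 2229 lower, with 1729 and 2965 under voom. Between regions in Ednrb-/- 2982 were higher in trunk and 3252 lower, with 3946 and 1943 under TPM and 3535 and 2621 under voom. For the caudal minus trunk difference of the genotype effect 513 were higher and 650 lower, with 298 and 1129 under TPM and 447 and 1187 under voom.

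Promoter windows of 250 bases before the start of the gene were available from RefSeq (GRCm38.p6, a build other than the mm39 of the deposited table) for 7 of the 9 factors, and Lhx5 and Lbx1 had no entry. Those of 4 factors are printed to show a promoter for each pattern described: Lhx1 (lower in Ednrb-/- caudal libraries), Evx1 and Lmx1b (higher there) and Sim1 (higher in trunk). Capitals mark the E-box CANNTG, the motif read by many bHLH factors, searched on both strands of these windows.
Lhx1, chr11:84525535-84525784, minus strand: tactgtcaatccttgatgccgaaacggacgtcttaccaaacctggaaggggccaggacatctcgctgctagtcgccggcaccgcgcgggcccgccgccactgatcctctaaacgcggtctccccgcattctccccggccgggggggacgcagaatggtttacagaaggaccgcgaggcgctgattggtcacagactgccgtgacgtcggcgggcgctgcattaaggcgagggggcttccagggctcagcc
Evx1, chr6:52313248-52313497, plus strand: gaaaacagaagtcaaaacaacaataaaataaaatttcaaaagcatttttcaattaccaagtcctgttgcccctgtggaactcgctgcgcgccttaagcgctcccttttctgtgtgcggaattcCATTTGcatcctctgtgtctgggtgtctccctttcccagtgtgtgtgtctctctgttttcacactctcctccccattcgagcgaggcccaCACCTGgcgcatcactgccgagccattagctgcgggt
Lmx1b, chr2:33641099-33641348, minus strand: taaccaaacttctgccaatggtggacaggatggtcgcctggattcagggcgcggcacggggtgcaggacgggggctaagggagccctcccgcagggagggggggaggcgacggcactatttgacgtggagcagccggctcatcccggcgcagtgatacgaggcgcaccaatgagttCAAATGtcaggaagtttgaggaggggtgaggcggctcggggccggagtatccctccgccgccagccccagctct
Sim1, chr10:50895401-50895650, plus strand: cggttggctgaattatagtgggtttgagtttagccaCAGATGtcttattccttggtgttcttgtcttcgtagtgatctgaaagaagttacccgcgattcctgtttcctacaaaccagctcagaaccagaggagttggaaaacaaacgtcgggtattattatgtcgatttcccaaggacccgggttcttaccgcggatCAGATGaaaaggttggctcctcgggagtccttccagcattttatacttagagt
The E-box was present in 6 of 10 windows of the 7 factors, beside 66.2% of 32851 windows of all genes. The Lhx1 window held none and those of Evx1 and Sim1 held 2 each. The homeodomain core TAATTA (4.84% of all windows) and the GATA site AGATAA (9.99%) were in 0 of the 10. The share with an E-box was near that of all genes, and a match is only a description of the letters.

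In the caudal region 6 of 9 factors differed between Ednrb-/- and WT embryos in a limma test with Benjamini-Hochberg adjustment over all genes (adjusted p under 0.05), beside 41.6% of all genes tested. Lhx1, Lhx5, Pax2 and Lbx1 fell (19.9% of all genes did), and Evx1 and Lmx1b rose (21.7% of all genes did). For 4 of 9 the groups did not overlap, as for 37.3% of all genes. Without the libraries with Xist and Ddx3y 6 of 9 fell and 1 rose, since En1 (adjusted p = 0.0355) and Sim1 (adjusted p = 0.0288) passed and Lmx1b (adjusted p = 0.0779) did not. Of all 17205 genes 3084 fell and 3470 rose in that fit. The median of the 9 log2 differences was -0.31, beside 0.01 over all genes tested. In the trunk region Lhx5, Pax2 and Lbx1 fell, 3 of 9 beside 13% of all genes called lower and 25.1% called in either direction, and the other 6 did not pass. The same 3 had groups that did not overlap, as had 28.1% of all genes. Without the Xist and Ddx3y libraries 3 of 9 were called, beside 3596 of 17205 genes, 1924 of them lower. The median was 0.01 there, beside 0.00 over all genes. The 2 comparisons contrast different libraries, but their p-values rest on a common estimate of the spread over all 16 libraries. Trunk and caudal libraries may also share embryos, so the 2 are not shown to be independent.

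**Figure D1:**
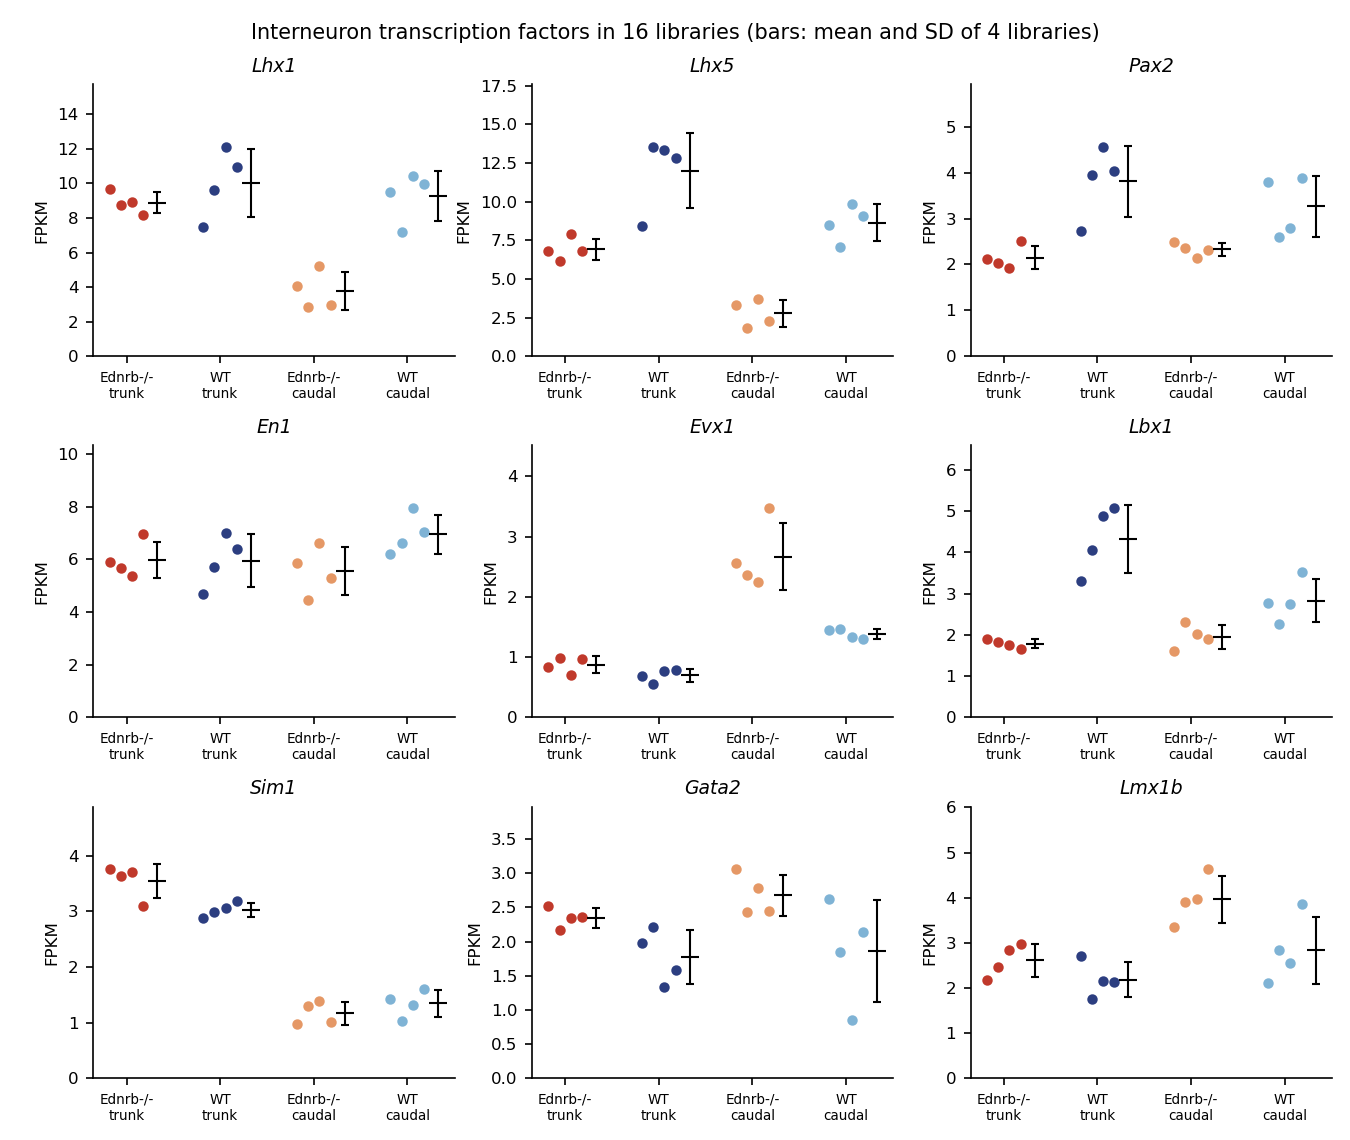
FPKM of the 9 factors in each of 16 libraries (points, replicates 1 to 4 from left to right), with the mean and SD of 4 libraries beside them; each panel has its own linear axis from 0. Lhx1 and Lhx5 sit lowest in the Ednrb-/- caudal libraries, Lbx1 is at most 1.91 FPKM in the Ednrb-/- trunk libraries, and Sim1 is at least 2.87 FPKM in all 8 trunk libraries.

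Lhx1 (ENSMUSG00000018698, mm39 chromosome 11 from 84409110 to 84416361, minus strand) is a LIM homeodomain factor that acts with Lhx5 in inhibitory interneurons. In the caudal region it was at 4.07, 2.87, 5.22 and 2.95 FPKM in Ednrb-/- replicates 1 to 4, against 9.48, 7.21, 10.4 and 9.97 FPKM in WT replicates 1 to 4. The groups did not overlap, and each Ednrb-/- library lay below each WT library. The log2 difference was -1.21 ± 0.17 (SE, adjusted p = 5.31e-05). In the trunk it was at 9.68, 8.76, 8.93 and 8.17 FPKM in Ednrb-/- libraries and at 7.48, 9.61, 12.1 and 10.9 FPKM in WT libraries. These groups overlapped, with a log2 difference of -0.15 ± 0.17 (adjusted p = 0.559). The caudal effect minus the trunk effect was -1.07 ± 0.24 on the log2 scale in a test of that difference (adjusted p = 0.0170). Of the 9 factors 2 passed this test, beside 6.76% of all genes. They were Lhx1, with a lower caudal effect (3.78% of all genes), and Lbx1, with a higher one (2.98%), and the call for Lhx1 was kept in all 28 alternatives run.

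Lhx5 (ENSMUSG00000029595, chromosome 5 from 120569764 to 120579288, plus strand), the close paralog of Lhx1, fell in both regions. Caudal libraries had 3.33, 1.83, 3.70 and 2.32 FPKM in Ednrb-/-, against 8.52, 7.06, 9.87 and 9.10 FPKM in WT. The log2 difference was -1.50 ± 0.18 (adjusted p = 1.68e-05), with no overlap. Trunk libraries had 6.78, 6.19, 7.88 and 6.81 FPKM in Ednrb-/-, against 8.43, 13.5, 13.3 and 12.8 FPKM in WT. The lowest WT trunk library, replicate 1, lay just above the highest Ednrb-/- one, and the log2 difference was -0.74 ± 0.18 (adjusted p = 0.00701). The caudal minus trunk difference of -0.76 ± 0.25 missed the threshold (adjusted p = 0.0768) but passed in 3 of 28 alternatives. Among these was the fit without the Xist and Ddx3y libraries (adjusted p = 0.0498). In that fit 2 of 9 factors passed this test, Lhx1 and Lhx5, both lower, beside 1021 of 17205 genes, and Lbx1 did not (adjusted p = 0.149).

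Pax2 (ENSMUSG00000004231, chromosome 19 from 44744484 to 44826310, plus strand), a paired-box factor of the same inhibitory classes, was at 2.48, 2.35, 2.15 and 2.32 FPKM in Ednrb-/- caudal libraries, against 3.80, 2.59, 2.80 and 3.89 FPKM in WT caudal libraries. The groups did not overlap, but the margin was small, and the log2 difference of -0.40 ± 0.13 (adjusted p = 0.0267) lost its call in 7 of 29 alternatives. Among these were fits that left out 1 library, namely replicate 2, 3 or 4 of Ednrb-/- caudal, or replicate 1 or 4 of WT caudal, with adjusted p from 0.0502 to 0.0907. In the trunk Pax2 was at 2.12, 2.04, 1.92 and 2.52 FPKM in Ednrb-/- and at 2.73, 3.95, 4.55 and 4.03 FPKM in WT. The trunk difference was -0.69 ± 0.13 (adjusted p = 0.00189) and was called in all 29 alternatives. Lhx1 and Pax2 also mark nephric cells, and of 14 other nephric genes 5 rose and 2 fell in the caudal region and 4 rose and 2 fell in the trunk. Over all genes 21.7% rose and 19.9% fell in the caudal region, and 12.2% rose and 13% fell in the trunk, and the counts of this and the other lists are to be read beside these shares. The sum of the nephric genes was 81.7 to 91.0 FPKM in Ednrb-/- caudal and 66.5 to 88.7 FPKM in WT caudal libraries, and 71.6 to 76.1 FPKM in Ednrb-/- trunk and 74.8 to 80.8 FPKM in WT trunk libraries, with none at 0 in any library. Their part in the Lhx1 and Pax2 results was not tested.

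Lbx1 (ENSMUSG00000025216, chromosome 19 from 45221123 to 45224251, minus strand) sets the dorsal dI4 to dI6 classes apart from their neighbours. Trunk libraries had 1.91, 1.82, 1.75 and 1.67 FPKM in Ednrb-/-, against 3.30, 4.05, 4.88 and 5.07 FPKM in WT. No library overlapped, and the fall of 1.06 ± 0.13 on the log2 scale (adjusted p = 6.20e-05) was called in all 29 alternatives. Caudal libraries had 1.60, 2.30, 2.01 and 1.90 FPKM in Ednrb-/- and 2.76, 2.26, 2.75 and 3.53 FPKM in WT. The groups overlapped by WT replicate 2, with a log2 difference of -0.44 ± 0.13 (adjusted p = 0.0127), lost under quantile normalization (adjusted p = 0.0561). The caudal minus trunk difference of 0.63 ± 0.18 lay at the threshold (adjusted p = 0.049998) and was called in only 7 of 28 alternatives, with adjusted p from 0.0270 to 0.149 over all of them.

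Lbx1 also marks migrating muscle precursors, and part of a list of 8 such genes moved too. In the trunk 3 of 8 fell and 2 rose, and Myog, a late muscle regulator, was at 37.5 FPKM in Ednrb-/- against 64.3 FPKM in WT. In the caudal region 4 of 8 fell and 1 rose, and Myod1, a master muscle regulator, was at 0.623 FPKM in Ednrb-/- against 4.21 FPKM in WT. The list summed to 50.8 to 58.5 FPKM in Ednrb-/- caudal and 71.0 to 83.7 FPKM in WT caudal libraries. In the trunk the summed level was 78.9 to 85.4 FPKM in Ednrb-/- trunk and 97.7 to 117 FPKM in WT trunk, with no gene at 0 in any library. The part of these cells in the Lbx1 result was not tested.

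Of the remaining factors, Evx1 (ENSMUSG00000005503, chromosome 6 from 52290483 to 52295363, plus strand), needed for the V0 class, rose in the caudal region. Ednrb-/- caudal libraries had 2.57, 2.37, 2.25 and 3.47 FPKM, against 1.45, 1.46, 1.33 and 1.29 FPKM in WT caudal libraries. All Ednrb-/- values were above all WT values, with a log2 difference of 0.73 ± 0.11 (adjusted p = 0.000133) that was called in all 29 alternatives. In the trunk it was low in both, at 0.840, 0.992, 0.699 and 0.974 FPKM in Ednrb-/- and at 0.687, 0.545, 0.764 and 0.784 FPKM in WT. The trunk difference of 0.20 ± 0.11 was not called (adjusted p = 0.212). The caudal minus trunk difference of 0.53 ± 0.16 missed the threshold (adjusted p = 0.0581) but passed in 5 of 28 alternatives.

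Evx1 is also a tailbud gene. Of 10 tailbud genes, Evx1 among them, 7 rose in Ednrb-/- caudal libraries (6 without the Xist and Ddx3y libraries). Lin28a, an RNA-binding protein of early cells, averaged 20.2 FPKM there against 3.60 FPKM in WT, and Cdx2, a posterior homeobox factor, 1.77 FPKM in Ednrb-/- against 0.525 FPKM in WT. The sum over the list was 47.8 to 69.6 FPKM in Ednrb-/- caudal and 9.34 to 31.6 FPKM in WT caudal libraries, and without Lin28a it was 22.2 to 48.2 FPKM in Ednrb-/- caudal and 6.51 to 27.0 FPKM in WT caudal libraries, which overlap. Lin28a rose in the trunk too, to 6.15 FPKM in Ednrb-/- against 1.52 FPKM in WT (1.71 ± 0.24, adjusted p = 0.000194), where Cdx2, Cdx4 and Msgn1 were at 0 in at least 1 library of each genotype. Cdx2 was at 0 in at least 1 WT caudal library, and no tailbud gene was at 0 in an Ednrb-/- caudal library. The part of tailbud tissue in the rise of Evx1 was not tested.

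Lmx1b (ENSMUSG00000038765, chromosome 2 from 33450977 to 33530620, minus strand), a LIM homeodomain factor of the excitatory dI5 class and of dorsal limb mesenchyme, was at 3.35, 3.89, 3.98 and 4.63 FPKM in Ednrb-/- caudal libraries, against 2.10, 2.85, 2.56 and 3.85 FPKM in WT caudal libraries. WT replicate 4 reached into the Ednrb-/- range. The rise of 0.44 ± 0.15 (adjusted p = 0.0246) lost its call in 6 of 29 alternatives, among them the fit without the 3 libraries with Xist and Ddx3y and those that left out Ednrb-/- caudal replicate 4 (adjusted p = 0.0789), WT caudal replicate 1 (adjusted p = 0.0883) or WT caudal replicate 3 (adjusted p = 0.0585). In the trunk Lmx1b was at 2.18 to 2.97 FPKM in Ednrb-/- and at 1.76 to 2.72 FPKM in WT, with a difference of 0.21 ± 0.15 (adjusted p = 0.308). Limb bud genes split in the caudal region, 5 of 12 higher and 3 lower in Ednrb-/-, and Tbx4, a hindlimb factor, averaged 8.77 FPKM in Ednrb-/- against 2.07 FPKM in WT. The sum over the list was 72.8 to 83.3 FPKM in Ednrb-/- caudal and 45.6 to 79.8 FPKM in WT caudal libraries, and its part in the Lmx1b result was not tested.

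En1, Gata2 and Sim1 were not called between genotypes in either region. En1 (ENSMUSG00000058665, chromosome 1 from 120530147 to 120535721, plus strand), the V1 factor, was at 5.86, 4.44, 6.61 and 5.29 FPKM in Ednrb-/- caudal libraries and at 6.18, 6.63, 7.94 and 7.04 FPKM in WT caudal libraries. The caudal difference was -0.31 ± 0.12 (adjusted p = 0.0587) and passed in 8 of 29 alternatives. In the trunk En1 ranged from 5.37 to 6.97 FPKM in Ednrb-/- and from 4.67 to 7.00 FPKM in WT, with a difference of 0.01 ± 0.12 (adjusted p = 0.950).

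Gata2 (ENSMUSG00000015053, chromosome 6 from 88170873 to 88184014, plus strand), a zinc finger factor of the inhibitory V2b class and of blood and vessels, was at 3.06, 2.43, 2.78 and 2.44 FPKM in Ednrb-/- caudal libraries, against 2.62, 1.85, 0.856 and 2.13 FPKM in WT caudal libraries. WT caudal replicate 3 stood well below the others. The difference was 0.49 ± 0.19 (adjusted p = 0.0558), passed in 3 of 29 alternatives and was 0.24 without that library (adjusted p = 0.158). Its partner Gata3, which acts after Gata2 in V2b cells, rose by 0.65 ± 0.14 (adjusted p = 0.00177), and by 0.50 without WT caudal replicate 3 (adjusted p = 0.00389), which was low for it too, at 0.742 FPKM. Of 9 endothelial genes 7 rose in the caudal region, with Egfl7 at 8.46 FPKM in Ednrb-/- and 5.89 FPKM in WT. The endothelial sum was 91.4 to 95.5 FPKM in Ednrb-/- caudal libraries and 76.0 to 79.5 FPKM in WT ones, with none at 0. Of 10 blood genes 1 rose and 3 fell there. The globin Hbb-bh1 averaged 1116 FPKM in Ednrb-/- against 625 FPKM in WT and the globin Hba-a1 231 FPKM in Ednrb-/- against 460 FPKM in WT, and the other 8 genes summed to 25.5 to 37.8 FPKM in Ednrb-/- and 32.3 to 39.4 FPKM in WT. The part of either in the Gata2 values was not tested. Trunk values of Gata2 ran from 2.16 to 2.52 FPKM in Ednrb-/- and from 1.33 to 2.22 FPKM in WT (0.34 ± 0.19, adjusted p = 0.226).

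Sim1 (ENSMUSG00000019913, chromosome 10 from 50770850 to 50865248, plus strand) marks V3 cells in the spinal cord. How much of its RNA in these whole-region libraries came from V3 cells was not tested. Trunk libraries had 3.75, 3.63, 3.71 and 3.09 FPKM in Ednrb-/- and 2.87, 3.00, 3.05 and 3.17 FPKM in WT. The difference of 0.20 ± 0.10 was not called (adjusted p = 0.177). Caudal libraries had 0.983, 1.29, 1.38 and 1.01 FPKM in Ednrb-/- and 1.43, 1.02, 1.33 and 1.61 FPKM in WT (-0.15 ± 0.10, adjusted p = 0.274). The caudal difference passed only in the fit without the libraries with Xist and Ddx3y (adjusted p = 0.0288).

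**Figure D2:**
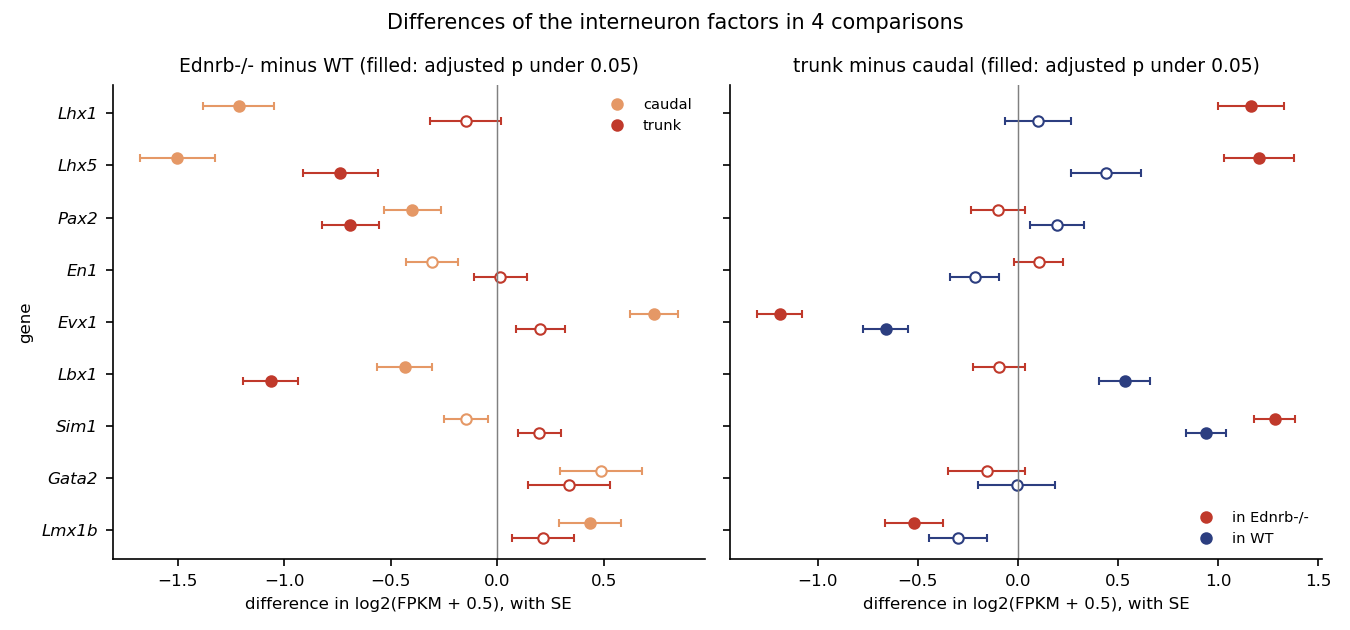
Log2 differences of the 9 factors with SE from the fit over all 16 libraries: Ednrb-/- minus WT in the caudal and trunk regions (left panel) and trunk minus caudal in Ednrb-/- and WT (right panel); filled points passed an adjusted p under 0.05. In the caudal region Lhx1 lies at -1.21, Lhx5 at -1.50 and Evx1 at 0.73.

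Between regions, 5 of 9 factors differed in Ednrb-/- embryos, beside 36.2% of all genes, and 3 of 9 in WT embryos, beside 18% of all genes. In Ednrb-/- 3 were higher in trunk (17.3% of all genes) and 2 lower (18.9%), and 5 of 9 had groups without overlap (33.8% of all genes). In WT 2 were higher (9.69%) and 1 lower (8.35%), and 2 of 9 had groups without overlap (21.3%). These comparisons use the same libraries as the genotype comparisons, so the values are given side by side only. Sim1 had the lowest adjusted p of the 9 in both genotypes. Its Ednrb-/- libraries averaged 3.55 ± 0.309 FPKM in trunk and 1.17 ± 0.201 FPKM in caudal region, and its WT libraries 3.02 ± 0.127 FPKM in trunk and 1.35 ± 0.245 FPKM in caudal region (SD, n = 4 each). Trunk was higher by 1.28 ± 0.10 in Ednrb-/- (adjusted p = 4.91e-07) and by 0.94 ± 0.10 in WT (adjusted p = 1.92e-05), with no overlap. Evx1 was lower in trunk, with differences of -1.19 ± 0.11 in Ednrb-/- (adjusted p = 3.01e-06) and -0.66 ± 0.11 in WT (adjusted p = 0.000959).

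Lhx1 and Lhx5 were higher in trunk than caudal region in Ednrb-/- by 1.17 ± 0.17 (adjusted p = 9.18e-05) and 1.21 ± 0.18 (adjusted p = 0.000114). In WT the same differences were 0.10 ± 0.17 for Lhx1 (adjusted p = 0.735) and 0.44 ± 0.18 for Lhx5 (adjusted p = 0.0997). Lmx1b was lower in trunk in Ednrb-/- (-0.52 ± 0.15, adjusted p = 0.0112), with -0.30 ± 0.15 in WT (adjusted p = 0.175). Lbx1 was higher in WT trunk by 0.53 ± 0.13 (adjusted p = 0.00937), a call lost without the libraries with Xist and Ddx3y (adjusted p = 0.0585), and its difference in Ednrb-/- was -0.09 ± 0.13 (adjusted p = 0.604). En1, Pax2 and Gata2 did not pass in either genotype. Without those 3 libraries, 5 of 9 factors passed in Ednrb-/- and 2 of 9 in WT, beside 5098 and 1912 of 17205 genes.

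Ordered by group mean, WT trunk was highest for Lhx1, Lhx5, Pax2 and Lbx1. Lhx1 averaged 8.88 FPKM in Ednrb-/- trunk and 10.0 FPKM in WT trunk, and 3.78 FPKM in Ednrb-/- caudal and 9.28 FPKM in WT caudal libraries. Neighbours in that order overlapped for Lhx1 except Ednrb-/- caudal, which lay below the rest, and the same held for Lhx5. Ednrb-/- caudal was highest for Evx1, Gata2 and Lmx1b, and Ednrb-/- trunk for Sim1. For En1 the extremes were 5.55 FPKM in Ednrb-/- caudal and 6.95 FPKM in WT caudal, with overlap between all neighbours, as for Gata2, Lmx1b and Lbx1. For Evx1 Ednrb-/- caudal lay above WT caudal, and WT caudal above both trunk groups, without overlap. For Sim1 both trunk groups lay above both caudal groups.

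Genes shared by most neurons were set beside the 9 factors, of which 4 fell, 2 rose and 3 were not called in the caudal region. All 15 pan-neuronal genes fell in the Ednrb-/- caudal region, among them Stmn2, a tubulin-binding protein of growing axons, at 12.4 FPKM in Ednrb-/- against 35.8 FPKM in WT, and Gap43, a growth cone protein, at 38.3 FPKM in Ednrb-/- against 84.9 FPKM in WT. The list's median log2 difference was -1.15, and its summed level was 233 to 424 FPKM in Ednrb-/- caudal and 593 to 789 FPKM in WT caudal libraries. In the trunk 3 of 15 fell, with Gap43 at 73.5 FPKM in Ednrb-/- against 98.5 FPKM in WT, and the sums were 669 to 757 FPKM in Ednrb-/- and 711 to 918 FPKM in WT. In the caudal minus trunk test 14 of 15 pan-neuronal genes were called, all lower, with Nefm, a neurofilament, at -1.49. Without the Xist and Ddx3y libraries 15 of 15 fell in the caudal region and 4 of 15 in the trunk. Of 15 neural progenitor genes 3 rose and 1 fell in the caudal region, and 2 rose and 1 fell in the trunk. The gene that fell in both was Fabp7, a fatty acid binding protein of radial glia, at 36.6 FPKM in Ednrb-/- against 98.5 FPKM in WT in the caudal region, and at 92.3 FPKM in Ednrb-/- against 182 FPKM in WT in the trunk. The list summed to 229 to 253 FPKM in Ednrb-/- caudal and 291 to 365 FPKM in WT caudal libraries, but without Fabp7 the other 14 genes summed to 188 to 218 FPKM in Ednrb-/- caudal and 195 to 251 FPKM in WT caudal libraries, which overlap.

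Set against the mean log2 level of these 15 genes in the same library, Lhx1 kept a narrow range, at -1.69 ± 0.03 in Ednrb-/- trunk, -1.74 ± 0.12 in WT trunk, -1.73 ± 0.05 in Ednrb-/- caudal and -1.63 ± 0.08 in WT caudal (SD, n = 4 each). Its relative difference was -0.09 in the caudal region and 0.05 in the trunk, with overlapping groups. Lhx5 was lower relative to the same genes in both regions, with differences of -0.38 in the caudal region and -0.54 in the trunk, without overlap. Pax2 and Lbx1 were relatively lower in the Ednrb-/- trunk (-0.49 and -0.87, no overlap) and relatively higher in the Ednrb-/- caudal region (0.72 with overlap and 0.68 without). The other 5 were relatively higher in Ednrb-/- caudal libraries without overlap: En1 by 0.81, Sim1 by 0.97, Lmx1b by 1.56, Gata2 by 1.61 and Evx1 by 1.85. In the trunk they were relatively higher by 0.21 for En1, 0.39 for Sim1, 0.41 for Lmx1b, 0.53 for Gata2 and 0.40 for Evx1, with overlap for Lmx1b only. The pan-neuronal mean itself differed by -1.12 in the caudal region without overlap and by -0.20 in the trunk with overlap. A gene with no change of its own would thus be relatively higher by the size of that fall. In the caudal region En1 (0.81), Sim1 (0.97), Pax2 (0.72) and Lbx1 (0.68) lay below that size. These relative values are a description with no test, and whether neuronal content had a part in any fall was not tested.

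**Figure D3:**
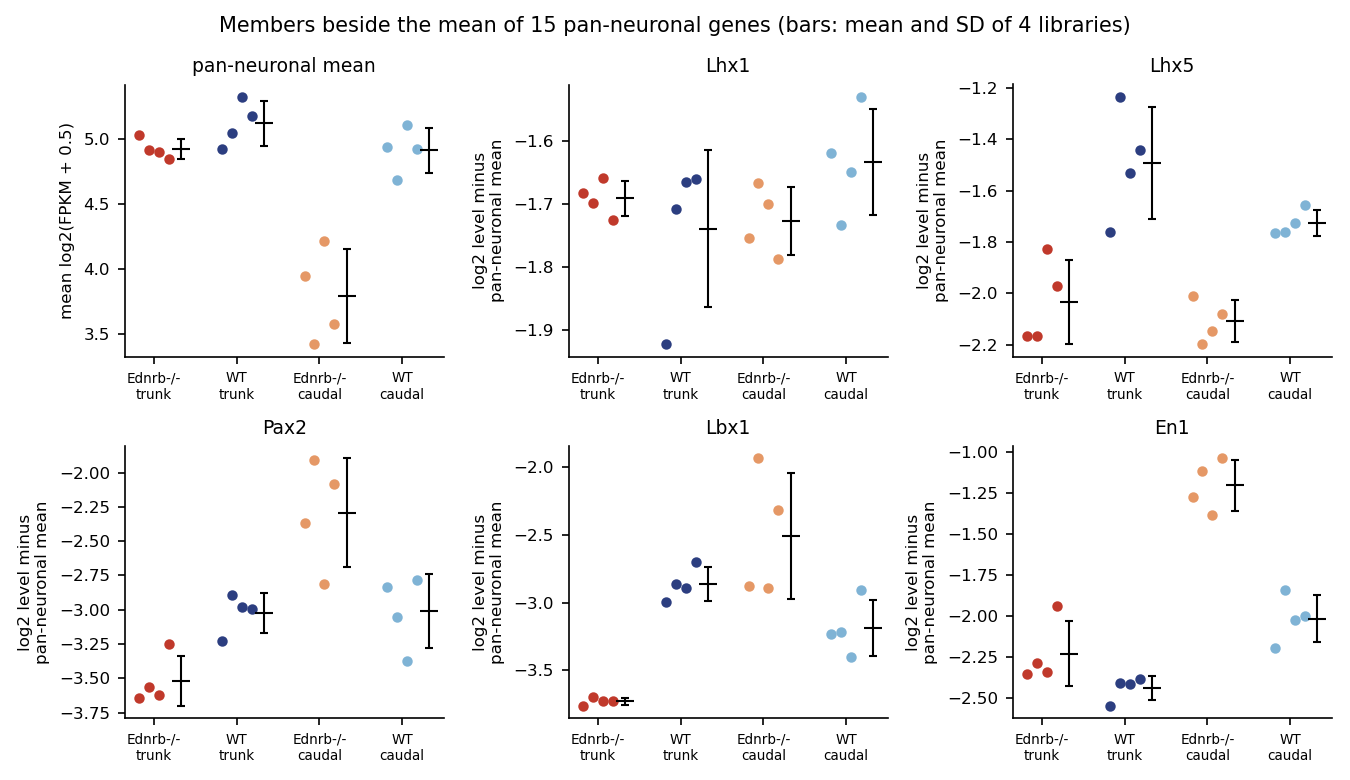
Top left, the mean log2(FPKM + 0.5) of 15 pan-neuronal genes per library; other panels, the log2 level of Lhx1, Lhx5, Pax2, Lbx1 and En1 minus that mean, with mean and SD of 4 libraries. Each panel has its own axis. Lhx1 lies between -1.92 and -1.53 in all 16 libraries, while the pan-neuronal mean is 3.79 in Ednrb-/- caudal libraries against 4.91 in WT caudal libraries.

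Transmitter genes mark what kind of neuron is present. All 5 inhibitory transmitter genes fell in the caudal region and all 5 in the trunk. Slc6a5, the glycine transporter, averaged 0.352 FPKM in Ednrb-/- against 1.58 FPKM in WT in the caudal region (-1.27 ± 0.16, adjusted p = 2.84e-05) and 1.19 FPKM in Ednrb-/- against 2.94 FPKM in WT in the trunk (-1.01 ± 0.16, adjusted p = 0.000439). Gad2, which makes GABA, was at 0.269 FPKM in Ednrb-/- caudal against 1.33 FPKM in WT caudal libraries, and at 0.985 FPKM in Ednrb-/- trunk against 2.65 FPKM in WT trunk libraries. Slc32a1, the vesicular GABA and glycine transporter, was at 0.136 FPKM in Ednrb-/- against 0.932 FPKM in WT in the caudal region, and at 0.566 FPKM in Ednrb-/- against 1.71 FPKM in WT in the trunk. The caudal minus trunk differences did not pass for Slc6a5 (-0.26, adjusted p = 0.531), Gad2 (-0.15, adjusted p = 0.791) or Slc32a1 (-0.10, adjusted p = 0.869). Their Ednrb-/- caudal levels lie below the pseudocount of 0.5 FPKM, which sets much of these values, and the falls are not shown to be equal. As ratios of mean FPKM, Ednrb-/- over WT, Slc32a1 stood at 0.146 in the caudal region and 0.331 in the trunk, Gad2 at 0.203 and 0.372, and Slc6a5 at 0.223 and 0.404. With voom on whole reads the differences were -1.72 for Slc32a1 (adjusted p = 0.120), -1.05 for Gad2 (adjusted p = 0.178) and -0.91 for Slc6a5 (adjusted p = 0.129), while a pseudocount of 1 turned the sign for Gad2 and Slc32a1, and quantile normalization for Slc32a1. Slc17a6, the glutamate transporter of excitatory interneurons, was at 0.279 FPKM in Ednrb-/- and 4.40 FPKM in WT in the caudal region. In the trunk it was at 3.26 FPKM in Ednrb-/- and 7.50 FPKM in WT, and its caudal effect minus its trunk effect was -1.54 ± 0.33 (adjusted p = 0.0155). The other excitatory transporter tested, Slc17a7, did not pass in the caudal region and rose in the trunk, at 0.675 FPKM in Ednrb-/- against 0.359 FPKM in WT (0.45 ± 0.15, adjusted p = 0.0333), so that of the 2 tested of 3 listed 1 fell in the caudal region, and 1 rose and 1 fell in the trunk. The rise of Slc17a7 was lost in 7 alternatives, among them the fits that left out Ednrb-/- trunk replicate 1, 2 or 4 or WT trunk replicate 1 or 2, with adjusted p up to 0.109. Slc17a7 passed the filter on low values only through the Ednrb-/- trunk libraries, at 0.523 to 0.929 FPKM. WT trunk libraries reached 0.472 FPKM at most. Its rise is therefore a description only.

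Other factors of spinal interneuron classes were given by a list of 31 genes that excludes the 9, of which 29 were tested (Drgx is listed as Prrxl1). In the caudal region 20 fell and 3 rose, with a median log2 difference of -0.50. The lowest values were those of Otp, a homeobox factor, at -1.93 ± 0.19 (adjusted p = 5.26e-06), Pou3f1, a POU factor, at -1.85 ± 0.19 (adjusted p = 7.54e-06), and Barhl2, a dI1 factor, at -1.60 ± 0.24 (adjusted p = 9.70e-05). Tlx3, which selects the excitatory dI3 and dI5 fate, fell by 1.36 ± 0.17, and Skor1 and Skor2, transcriptional corepressors, fell by 1.52 ± 0.15 and 1.52 ± 0.18. Skor2 was at 0 in 3 of 4 Ednrb-/- caudal libraries and at 0.0535 FPKM in the other, so its fitted fold is no measure of size. The 3 that rose were Gata3, Isl1, which also marks motor and sensory neurons, and Wt1, a dI6 and kidney factor. Isl1 (0.26 ± 0.07) lost its call under TPM (adjusted p = 0.126) and quantile scaling (adjusted p = 0.152). Wt1 (1.25 ± 0.36) lost it without the Xist and Ddx3y libraries (adjusted p = 0.0556) and was at 0.78 without WT caudal replicate 3. Without the Xist and Ddx3y libraries 20 of 29 fell and 2 rose. Of the 31 genes 15, these 3 among them, are held by other lists too. Tlx3, Pou4f1, Isl1 and Prrxl1 are also in a list of 10 sensory neuron genes. With them included, 8 of the 10 fell and 1 rose in the caudal region, and 4 fell and 2 rose in the trunk. In the caudal minus trunk test 5 of the 10 were called, all lower. The part of sensory neurons in these results was not tested. Of the 15 tested genes held by no other list 12 fell.

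In the trunk 10 of 29 fell and 3 rose, with a median of -0.19. Skor1, at 1.05 FPKM in Ednrb-/- and 3.75 FPKM in WT, fell by 1.46 ± 0.15 (adjusted p = 2.69e-05), Skor2 by 1.10 ± 0.18, Otp by 0.84 ± 0.19 and Sox14, a V2c factor, by 0.74 ± 0.18. Sox14 passed the filter on low values only through the WT trunk libraries, at 0.710 to 1.01 FPKM, so its fall is a description only. Lmx1a, the roof plate relative of Lmx1b, fell by 0.68 ± 0.10. Lhx4, Isl1 and Ptf1a rose, Lhx4 by 0.35 ± 0.11, Isl1 by 0.23 ± 0.07 and Ptf1a, which selects inhibitory dI4 cells, by 0.38 ± 0.13. Ptf1a was at 0.504 to 0.644 FPKM in Ednrb-/- trunk and 0.259 to 0.370 FPKM in WT trunk libraries, near the pseudocount of 0.5 FPKM. It passed the filter on low values only through the Ednrb-/- trunk libraries, where it is high. Its rise and its caudal minus trunk value below are therefore descriptions only. Of the 3 that rose, Isl1 lost its call in 10 and Lhx4 in 6 of 29 alternatives. Ptf1a lost its call in 18 alternatives and was not tested under the filter at 1 FPKM. Without the Xist and Ddx3y libraries 1 of 29 class factors rose. Isl1, Lhx3 and Lhx4 are also in a list of 9 motor neuron genes. With them included, 3 of the 9 rose and 0 fell in the trunk, and 1 rose and 4 fell in the caudal region. In the caudal minus trunk test 5 of the 9 were called, all lower. The part of motor neurons in these results was not tested. Of the class factors 9 of 29 were called in that test, all with a lower caudal effect: Pou3f1 (-1.43), Lhx9 (-1.24), Barhl1 (-1.10), Otp (-1.09), Tlx3 (-1.01), Pou4f1 (-0.91), Ptf1a (-0.81), Lhx2 (-0.71) and Lhx4 (-0.55). The call was lost for Lhx4 in 15 of 28 alternatives (adjusted p up to 0.0931), for Lhx2 in 14 of 27 (up to 0.0909), for Pou4f1 in 8 of 28 (up to 0.0702), for Otp in 7 of 28 (up to 0.0660) and for Tlx3 in 6 of 28 (up to 0.0603). It was lost for Pou3f1, Lhx9 and Barhl1 in 0 of 28 and for Ptf1a in 0 of 27.

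**Figure D4:**
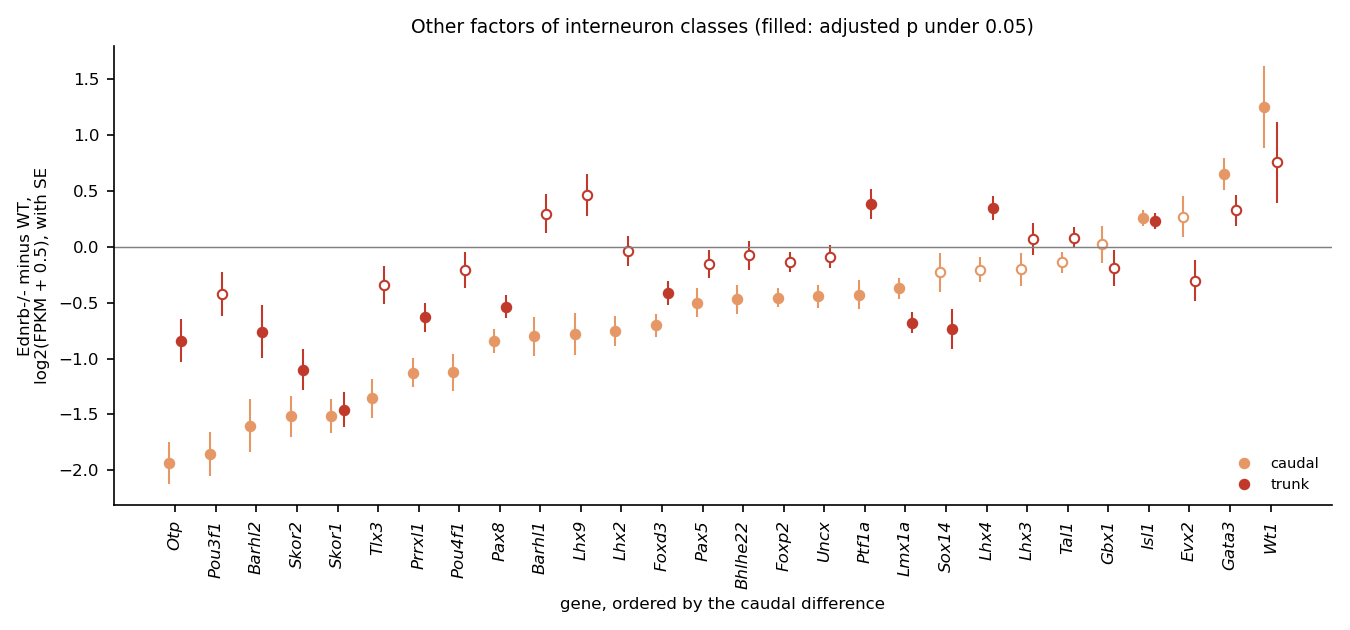
Ednrb-/- minus WT difference in log2(FPKM + 0.5), with SE, of 28 of the 29 tested class factors outside the 9, ordered by the caudal value; filled points passed an adjusted p under 0.05. Otp has the lowest caudal value at -1.93 and Wt1 the highest at 1.25, and Skor1 is low in both regions.

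The variation between libraries of a group was shared by several factors. WT trunk replicate 1 was lowest of its group for 6 of the 9 (Lhx1, Lhx5, Pax2, En1, Lbx1 and Sim1), WT caudal replicate 2 for 5 and Ednrb-/- caudal replicate 2 for 4. Relative spread ranged from a coefficient of variation of 4.19% for Sim1 in WT trunk to 39.9% for Gata2 in WT caudal libraries. For Lhx1 and Lhx5 it was 29.3% and 31.1% in Ednrb-/- caudal libraries, against 15.5% and 13.8% in WT caudal ones.

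Genes with the most similar pattern over the 16 libraries were found by the root mean square difference of centred log2 levels, among tested protein-coding genes. They were Myt1 (0.08) and Dcc (0.08) for Lhx1, whose own SD was 0.60, and Ttyh1 (0.12) and Aplp1 (0.13) for Lhx5, whose SD was 0.78. Evx1 was most like Shh (0.19) and Emilin2 (0.19), Sim1 most like Hoxc4 (0.14) and Hoxa7 (0.16), and Pax2 most like Kcnq3 (0.14) and Fgd3 (0.17). For Lbx1 they were Car11 (0.16) and Prelp (0.18), for En1 Prdm12 (0.11) and Prr36 (0.11), for Gata2 Man1a (0.16) and Calcrl (0.20), and for Lmx1b Irx3 (0.14) and Sdc1 (0.16). En1, Gata2 and Lmx1b had SDs of 0.21, 0.35 and 0.34 over all libraries, beside 0.34 for Pax2, 0.47 for Lbx1, 0.57 for Evx1 and 0.60 for Sim1.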

How the data were processed

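Total RNA was extracted with TRIzol, per the labels' protocols. Tools named are fastp, HISAT2 2.0.5 and featureCounts 1.5.0-p3 with mm39 as the build, as listed per the submitters' processing notes. Neither annotation release nor strandedness is given in the sources used here. The deposited values are FPKM, 1 column per library. Rescaled by gene length and 1 factor per library, FPKM gave whole reads for 100% of values within 0.01, and those reads gave depth and the voom alternative. limma 3.58.1 (R 4.3.3) was fitted to log2(FPKM + 0.5), so folds of low genes are understated, with 4 group means over 16 libraries, a trended variance and Benjamini-Hochberg adjustment over 17205 genes that reached 0.5 FPKM in 4 or more libraries. The procedure was tested on simulated data. Alternatives changed pseudocount, filter, scaling, weights or libraries, or added a replicate block or sex term. No 2 libraries of a group agreed within counting error (chi-square per degree of freedom 5.46 to 16.1), and none was counted as a duplicate. Named genes were the 9 factors, Ednrb, any class factor, up to 4 genes of each other list by adjusted p, and the 2 genes most like each factor. The factors, lists and rules were chosen with earlier results of these data known. Counts of a list are descriptions, with no test of the list. The values of 1 class factor are not reported here. Figures used Python 3.11.15 with matplotlib 3.10.9.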

Additional observations from a re-analysis of the deposited data

Results flagged for a closer look

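Among the 184 groups of 4 libraries looked at (46 genes in 4 groups), 9 held 1 library far from the other 3, by a rule that chance meets in about 1 of 20 groups. The values were those of Lhx5 in WT trunk (8.43 FPKM, replicate 1), Skor1 in WT trunk (2.86 FPKM), Tbx4 in WT trunk (0.910 FPKM), Skor2 in Ednrb-/- caudal (0.0535 FPKM), Wt1 in Ednrb-/- caudal (2.97 FPKM), Lhx4 in Ednrb-/- caudal (2.93 FPKM), Cdx2 in Ednrb-/- trunk (0.0438 FPKM), Hba-a1 in Ednrb-/- trunk (231 FPKM) and Gata3 in WT caudal (0.742 FPKM).

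The genotype difference passed the test of a difference between the 2 regions for these genes, given as caudal minus trunk on the log2 scale: Lhx1 (-1.07), Lbx1 (0.63), Otp (-1.09), Pou3f1 (-1.43), Tlx3 (-1.01), Pou4f1 (-0.91), Barhl1 (-1.10), Lhx9 (-1.24), Lhx2 (-0.71), Lhx4 (-0.55), Ptf1a (-0.81), Slc17a6 (-1.54), Gap43 (-0.74) and Nefm (-1.49). This call was lost for Lbx1 in 21, Lhx4 in 15, Pou4f1 in 8, Otp in 7 and Tlx3 in 6 of 28 alternatives and for Lhx2 in 14 of 27. Lbx1 was the only one of these with a caudal fall smaller than its trunk fall. Ptf1a passed the filter on low values only through the Ednrb-/- trunk libraries, where it is high, so its value is a description only.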

How the results depend on the processing

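For the 9 factors, 29 alternatives per comparison (28 for the caudal minus trunk test) changed pseudocount, filter, scaling, weights, samples or test, or left out 1 library. Of these values 1220 kept direction and side of the threshold, 36 lost and 23 gained a call, and 17 changed sign, all 17 uncalled. The sign changes were Lhx1, trunk against caudal region in WT (-0.0104 without the libraries with Xist and Ddx3y, and -0.0104 to 0.226 with 1 library left out), En1, Ednrb-/- against WT in the trunk region (-0.00956 TPM, -0.0655 array weights, -0.0239 voom, -0.0431 sex term, and -0.0875 to 0.0911 with 1 left out), Gata2, trunk against caudal region in WT (0.00973 at a pseudocount of 0.1, 0.0189 voom, 0.0131 without the Xist and Ddx3y libraries, and -0.25 to 0.15 with 1 left out) and the Gata2 caudal minus trunk value (-0.0967 to 0.304 with 1 left out, the lowest without WT caudal replicate 3). The cause was not tested. Genes called between regions in WT numbered 1912 without the Xist and Ddx3y libraries, against 3103. Genes called in the caudal minus trunk test numbered 571 with no filter and 585 to 1488 with 1 left out, against 1163 (673 and 585 without Ednrb-/- caudal replicates 2 and 4, 606 and 672 without Ednrb-/- trunk replicates 1 and 3, 670 without WT caudal replicate 1 and 648 without WT trunk replicate 1). Of the 9 factors, 1 was called in that test under a pseudocount of 0.1, no filter, TPM, median-of-ratios scaling, the replicate block and the sex term, and 1 to 3 with a library left out, against 2. Evx1 gained a call there under a pseudocount of 1 (adjusted p = 0.0437), quantile normalization (adjusted p = 0.0494) and array weights (adjusted p = 0.0383). Lhx5 gained one under voom (adjusted p = 0.0315) and without the Xist and Ddx3y libraries (adjusted p = 0.0498), where Lbx1 lost its call. Of the other named genes' values 1824 were the same, 94 lost a call and 3 changed sign, uncalled: Gad2, genotype effect in the caudal region minus that in the trunk region (0.0179 at a pseudocount of 1), and Slc32a1, genotype effect in the caudal region minus that in the trunk region (0.0385 at a pseudocount of 1 and 0.0229 under quantile normalization). Libraries of the same replicate number had correlations of deviations from -0.08 to 0.11, which cannot settle whether any of them share an embryo. With the number as a block 8, 3, 5 and 3 of the 9 factors were called in the caudal, trunk, Ednrb-/- and WT comparisons, En1 (adjusted p = 0.0383) and Gata2 (adjusted p = 0.0371) being added in the caudal one, and 1 in the caudal minus trunk test, where Lbx1 lost its call (adjusted p = 0.0551). Of 17205 genes 7143, 4349, 6238 and 3124 were called in these comparisons with the block, and 1128 in the caudal minus trunk test.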

Other observations

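Values of the paralogs Lhx1 and Lhx5 were set against each other after they had been seen, with no test. The ratio of their FPKM was 1.43, 1.42, 1.13 and 1.20 in Ednrb-/- trunk libraries, against 0.888, 0.710, 0.907 and 0.854 in WT trunk libraries. It was 1.22, 1.57, 1.41 and 1.28 in Ednrb-/- caudal libraries, against 1.11, 1.02, 1.06 and 1.10 in WT caudal libraries. The Ednrb-/- ratios were above the WT ratios in both regions without overlap.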
